A study of Mus musculus with 6 samples.

Results

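Iron enters and leaves a mammary tumor cell through a small set of carriers, and 10 genes of this system were examined here in 4T1 cells that had survived methotrexate. They were the 4 STEAP genes (Steap1, Steap2, Steap3 and Steap4), the transferrin gene Trf and its receptor gene Tfrc, the divalent metal transporter gene Slc11a2, the ferroportin gene Slc40a1, the ceruloplasmin gene Cp and the lipocalin 2 gene Lcn2. The genes were listed by symbol, and the probe set of each was selected on its mean value over all 6 arrays, which takes no account of a difference between groups. All 10 were measured, out of 19933 genes with a probe set of a single symbol. The list itself was drawn up with earlier results of these arrays known, so the number of its genes that differed is a description of these genes and supports nothing further.

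The arrays compared MR13 cells with WTR- cells, in 3 arrays each, to ask how chemotherapy survivors differ from the line they came from. 4T1 is a BALB/c mouse mammary carcinoma line, and WTR- denotes these cells without treatment. MR13 cells descend from 4T1 cells selected with methotrexate, a folate antagonist, at 13 µg/ml for up to 2 weeks according to the labels, until colonies of survivors appeared, whereas a different concentration and a longer selection stand in the text of the study. The survivors were returned to drug-free medium, the labels do not say whether drug was present at RNA extraction, and MR13 is 1 selected line grown in triplicate wells. The replicate error behind each p value is thus that of wells or cultures, and no second selection was measured. All values below are on the log2 scale of the deposited table, on which a difference of 1 is a 2-fold change.

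Iron circulates bound to transferrin, which the transferrin receptor carries into endosomes. There a ferrireductase of the STEAP family reduces the metal, and the divalent metal transporter moves it into the cytosol. Ferroportin is the known exporter of iron from cells, and the ferroxidase ceruloplasmin helps load exported iron onto transferrin. Lipocalin 2 is a secreted protein that captures iron-binding siderophores of bacteria, and epithelial and tumor cells make it during inflammation. Iron regulatory proteins, which bind stem-loops in messenger RNAs, stabilize the transferrin receptor message when iron is scarce and hold back translation of ferritin and ferroportin.

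Across all genes, 7497 of 19933 (37.6%) differed between MR13 and WTR- cells in limma's test (adjusted p below 0.05, hereafter called). Higher calls in MR13 made up 17.0% of all genes and lower calls 20.6%, and 4.06% were called and also at least 2-fold apart. The balance of higher and lower calls rested on the scaling, since with each array centred on its median 21.3% of all genes were higher and 18.5% lower. The ranges of the groups did not overlap for 47.4% of all genes. With the dimmest 30% of genes left out, a larger share was called, 7640 of 13953 genes, and all 10 genes of iron transport were among those kept. Of the 10 genes of iron transport, 9 were called, 6 higher and 3 lower, and the ranges did not overlap for the same 9. Their median difference was 0.32, against 0.01 over all genes. Steap4, Slc11a2, Cp, Lcn2, Steap1 and Steap2 were higher in MR13 cells, Slc40a1, Steap3 and Tfrc were lower, and Trf was not called. At least 2-fold differences were seen for 3 of them, Steap4 upward and Slc40a1 and Steap3 downward.

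Array values hold background signal, and no detection calls were used. As a mark of dimness, the 95th percentile of 1027 olfactory receptor genes, which a mammary carcinoma line is not thought to express, lay at 5.61 to 5.67 on the MR13 arrays and at 5.54 to 5.68 on the WTR- arrays. Differences of genes near or below this mark can be understated. In RNA from whole cultures, a smaller share of cells with a transcript and less transcript per cell cannot be told apart. Of 5 epithelial markers, all above the mark, 4 were lower in MR13 and Krt8 was not called, and their mean level ran from 9.81 to 9.95 on the MR13 arrays and from 11.79 to 11.85 on the WTR- arrays. The part of this shift in the results below was not tested.

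**Figure D1:**
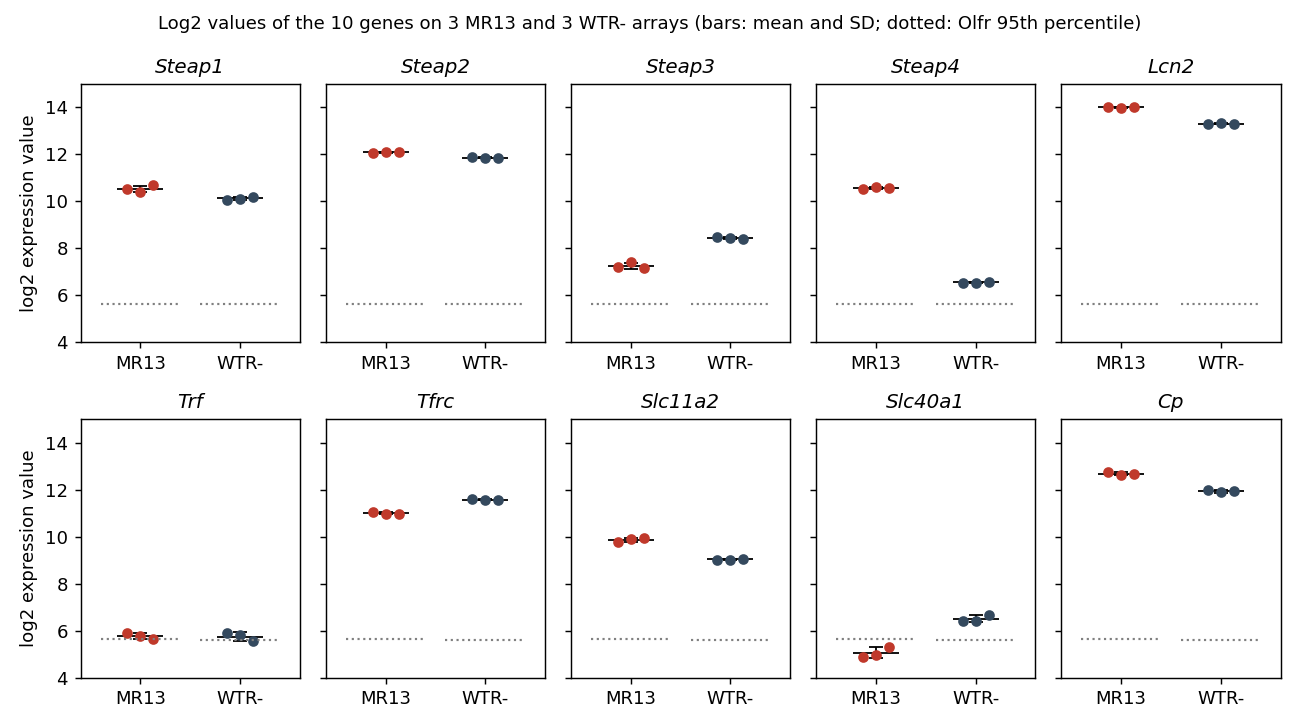
Deposited log2 values (y axis) of the 10 genes on 3 MR13 arrays (red) and 3 WTR- arrays (dark blue); points are arrays, bars are means with SD, and dotted lines mark the mean 95th percentile of olfactory receptor genes in each group. The groups are apart for 9 genes, most of all for Steap4 (10.55 in MR13, 6.55 in WTR-), while Trf overlaps.

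The 4 STEAP genes went different ways. They encode membrane reductases with a heme-binding core, of which STEAP2, STEAP3 and STEAP4 reduce iron and copper, whereas STEAP1 lacks the part that binds NADPH. Steap4, which is known in mouse fat tissue as a gene induced by inflammatory cytokines, stood at 10.51, 10.61 and 10.55 on the MR13 arrays and at 6.53, 6.54 and 6.57 on the WTR- arrays. The lowest MR13 value thus lay 3.94 above the highest WTR- value, and each group was tightly grouped. The difference was 4.01 (SE 0.05, 95% interval 3.89 to 4.12, adjusted p = 6.36e-10), a 16.1-fold higher signal in MR13. Only 0.0903% of all genes had a larger difference in either direction. The WTR- mean of 6.55 was not far above the mark of dimness (5.54 to 5.68 on those arrays), so the fold can be understated.

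Steap3, which encodes the ferrireductase of the transferrin pathway in mouse red cell precursors, moved the other way. Its values were 7.22, 7.40 and 7.16 in MR13 cells, against 8.48, 8.43 and 8.38 in WTR- cells. All MR13 arrays were lower, by at least 0.98, and Steap3 averaged 7.26 ± 0.13 in MR13 and 8.43 ± 0.05 in WTR- (SD, n = 3 each). It fell by 1.17 (SE 0.07, adjusted p = 2.77e-06), which is 2.25-fold lower in MR13. The intervals of Steap4 (3.89 to 4.12) and Steap3 (-1.33 to -1.01) lay far apart.

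Steap1 and Steap2, which neighbour each other on the same chromosome as Steap4, were higher in MR13 by much less. Steap1 gave 10.51, 10.39 and 10.67 in MR13 and 10.05, 10.11 and 10.19 in WTR-, so the groups were separated by 0.20, with MR13 replicate 3 the highest array. The difference was 0.41 (SE 0.08, adjusted p = 0.0026), and it was 0.33 without MR13 replicate 3 (adjusted p = 0.0082). Steap2, read by the brighter of its 2 probe sets, gave 12.05, 12.10 and 12.09 in MR13 and 11.88, 11.84 and 11.83 in WTR-. This is a narrow separation of 0.17 between tight groups, with a difference of 0.23 (SE 0.05, adjusted p = 0.0050). The other Steap2 probe set averaged 5.73 in MR13 and 5.65 in WTR-, near the mark of dimness, with a difference of 0.08 (adjusted p = 0.41 over all probe sets). The intervals of Steap1 (0.23 to 0.58) and Steap2 (0.12 to 0.34) overlapped, and whether the genes differ in their response was not tested.

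**Figure D2:**
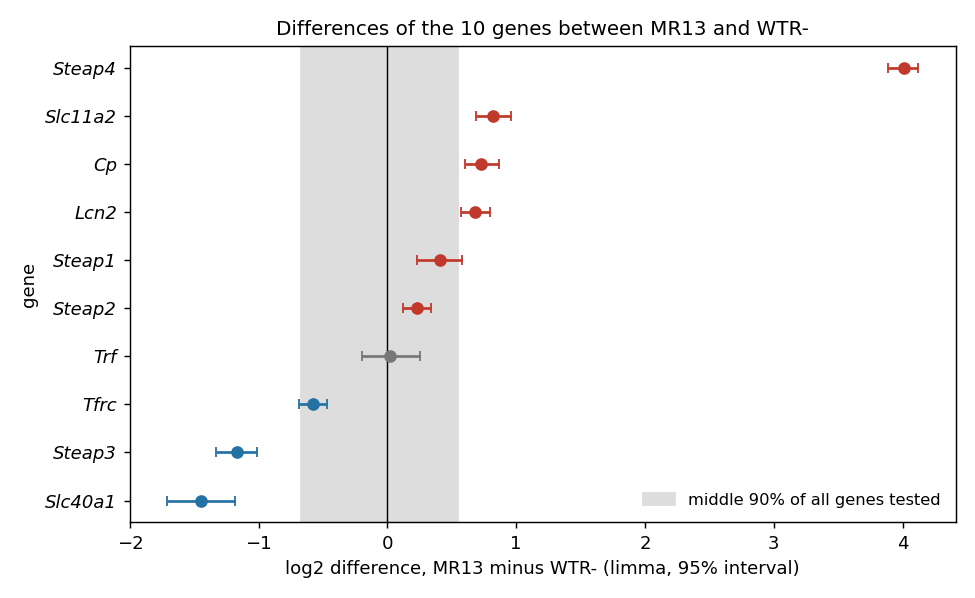
Log2 differences, MR13 minus WTR- (x axis), of the 10 genes (y axis) with limma 95% intervals; red points are called higher, blue lower and grey not called, and the grey band holds the middle 90% of all genes tested. Steap4 lies at 4.01, Slc40a1 at -1.45 and Steap3 at -1.17, outside the band that runs from -0.67 to 0.55. Slc11a2 (0.82), Cp (0.73) and Lcn2 (0.68) also lie above the band, by less.

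The measured named genes nearest to Steap4 on either side showed no difference of its size. Tex47, 642 kilobases away, averaged 4.44 ± 0.09 in MR13 and 4.37 ± 0.12 in WTR- (SD, n = 3 each). Sri, 63.9 kilobases away, encodes the calcium-binding protein sorcin. Sri averaged 11.95 ± 0.04 in MR13 and 11.81 ± 0.02 in WTR-. Neither was called (differences 0.07 and 0.14, adjusted p = 0.55 and 0.055), and Tex47 was below the mark of dimness. Sri was called higher under 5 alternatives (0.14 to 0.18). On the far side of Steap2, Cfap69 was lower in MR13 (-0.39, adjusted p = 0.016), opposite in direction to Steap2, but it lost its call without MR13 replicate 2 (-0.31) or WTR- replicate 3 (-0.32). Beyond Steap1, Zfp804b, 1020 kilobases away, was dim and not called (-0.05, adjusted p = 0.67). The neighbours of Steap3, Dbi and C1ql2, were not called either (-0.13 and 0.02, adjusted p = 0.078 and 0.89).

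Lcn2 was read near the top of the array scale in both groups. It stood at 14.00, 13.96 and 14.00 in MR13 cells, against 13.30, 13.34 and 13.27 in WTR- cells. All MR13 values were higher, with a gap of 0.62 between groups whose own values differed by less than 0.1. Lcn2 averaged 13.99 ± 0.02 in MR13 and 13.30 ± 0.03 in WTR- (SD, n = 3 each), a difference of 0.68 (SE 0.05, 95% interval 0.57 to 0.80, adjusted p = 8.11e-06) or a 1.6-fold higher signal. The highest value of any probe set was 14.35 to 14.39 on the MR13 arrays and 14.33 to 14.38 on the WTR- arrays, so Lcn2 in MR13 lay close to the top of the scale, and the part of signal compression in its difference was not tested. Both neighbours of Lcn2 were higher in MR13 too, Ciz1 by 0.45 (SE 0.05, adjusted p = 1.41e-04) and Ptges2 by 0.45 (SE 0.07, adjusted p = 9.32e-04).

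Neutrophils also make lipocalin 2. Of 6 neutrophil markers, Ly6g was higher in MR13 (5.77, against 4.63 in WTR-) and the others were not called, and 3 were above the mark of dimness in MR13 and 2 in WTR-. Their mean level was 5.08 to 5.14 on the MR13 arrays and 4.86 to 5.07 on the WTR- arrays. Of 6 myeloid markers only Cd68 was above the mark, in both groups. Cd68 was higher in MR13 (9.12, against 8.77 in WTR-, a difference of 0.35), and the other myeloid markers were not called. Ptprc, the pan-leukocyte gene, was at 5.22 in MR13, below the mark. Of 6 fibroblast markers, Pdgfra and Dcn were higher in MR13 and the others, among them Col1a1 and Col3a1, were not called. Whether other cells contributed to the Lcn2 signal was not tested.

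The sequence just before the transcription start is shown for Steap4, the gene with the largest difference of the 10, and for Lcn2, because both were higher in MR13 and both are known to be induced in inflammation. RefSeq promoters of GRCm38.p6 matched 7 of the 10 genes, and none was available for Slc40a1, Slc11a2 and Trf. The 250 bases before the start are given 5′ to 3′, at chr5:7960222-7960471 on the plus strand for Steap4 and chr2:32387740-32387989 on the minus strand for Lcn2, and capitals mark motif matches on either strand.
Steap4: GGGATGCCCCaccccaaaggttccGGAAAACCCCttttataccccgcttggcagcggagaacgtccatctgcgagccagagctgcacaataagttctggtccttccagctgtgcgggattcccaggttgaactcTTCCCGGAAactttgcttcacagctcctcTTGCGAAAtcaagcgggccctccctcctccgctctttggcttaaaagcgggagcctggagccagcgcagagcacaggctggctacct
Lcn2: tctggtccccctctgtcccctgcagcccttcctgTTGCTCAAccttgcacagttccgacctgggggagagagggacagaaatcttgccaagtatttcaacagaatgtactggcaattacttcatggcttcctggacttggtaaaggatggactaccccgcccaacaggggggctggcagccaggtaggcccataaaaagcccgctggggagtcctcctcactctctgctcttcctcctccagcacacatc

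Motifs were searched over 300 bases, 250 before and 50 after the start. The Steap4 window held 1 STAT motif (TTCNNNGAA) from -116 to -108, 1 C/EBP motif (TTGCNNAA) from -87 to -80, and matches to the kappa B consensus from -250 to -241 and from -226 to -217, counted from the start, none of which overlap. The Lcn2 window held the C/EBP motif from -216 to -209. The other motifs searched were those of NRF2 (TGACNNNGC) and of hypoxia factors (ACGTG). Such matches were not limited to genes that were higher in MR13. Steap3, which was lower, had a C/EBP motif and a kappa B match before 1 of its 4 starts. Tfrc, also lower, had 1 hypoxia motif, which fell in both of its windows because these overlap (-2 to 2 and -228 to -224). Among the other higher genes, Steap2 had a STAT, an NRF2, a hypoxia and a kappa B match spread over its 3 starts, and Cp a C/EBP motif before 1 of 2. Steap1, also higher, had no match, and Slc11a2 had no promoter to search. Among 32851 promoters of the same length, 8.30% held the STAT motif, 10.8% the C/EBP motif, 8.46% the kappa B consensus, 12.4% the NRF2 motif and 19.6% the hypoxia motif, and a gene with several starts has more windows in which to match. A match describes letters and not binding, and these data do not bear on which factor was bound.

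Genes of iron import were split. Tfrc, the receptor that brings transferrin-bound iron into the cell, gave 11.03, 10.95 and 10.98 in MR13 cells, against 11.58, 11.57 and 11.56 in WTR- cells. All MR13 values were lower, with a gap of 0.53 and little spread within either group. Tfrc fell by 0.58 (SE 0.05, 95% interval -0.69 to -0.47, adjusted p = 2.16e-05), so that signal was 1.5-fold lower in MR13. Slc11a2, the transporter that releases iron from endosomes, went the opposite way, with 9.75, 9.88 and 9.93 in MR13 and 9.01, 9.02 and 9.06 in WTR-. Every MR13 array was above the WTR- arrays, by at least 0.69. The difference was 0.82 (SE 0.06, 95% interval 0.69 to 0.96, adjusted p = 7.88e-06), or 1.77-fold.

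Trf, the gene of transferrin itself and mainly a liver product, was close to the mark of dimness in both groups. It gave 5.90, 5.78 and 5.65 in MR13 and 5.91, 5.80 and 5.56 in WTR-, and the ranges overlapped fully. The difference was 0.02 (95% interval -0.20 to 0.25, adjusted p = 0.90). A change within that interval, or one hidden by background, would not have been detected.

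Of the genes of iron export, the exporter was lower and the ferroxidase higher. Slc40a1 gave 4.88, 4.98 and 5.32 in MR13 cells, against 6.42, 6.42 and 6.68 in WTR- cells. The groups were apart by 1.10, and replicate 3 was the highest array in each. Slc40a1 averaged 5.06 ± 0.23 in MR13 and 6.51 ± 0.15 in WTR- (SD, n = 3 each) and fell by 1.45 (SE 0.12, adjusted p = 1.54e-05), which is 2.72-fold lower in signal. All 3 MR13 values lay below the 95th percentile of olfactory receptor genes and all WTR- values above it, so Slc40a1 was not shown to be above background in MR13 and its fold can be understated. Cp gave 12.74, 12.60 and 12.66 in MR13 and 12.00, 11.89 and 11.92 in WTR-. It was higher on every MR13 array, by at least 0.61, with a difference of 0.73 (SE 0.06, 95% interval 0.60 to 0.87, adjusted p = 1.41e-05) or 1.66-fold. Ceruloplasmin is also an acute-phase protein of plasma.

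Other genes of iron and heme handling, 80 listed by role, were counted to set the 10 genes in their pathway, and 74 of them were measured. Of these, 20 were higher and 18 lower in MR13, with a median difference of 0.02, against 17.0% higher and 20.6% lower over all genes. With each array centred on its median, 24 were higher and 13 lower, against 21.3% higher and 18.5% lower over all genes with the same centring. At least 2-fold differences were called for 4 of the 74, against 4.06% of all genes. The counts by role below are to be read beside the same shares of all genes, 17.0% higher and 20.6% lower. Those shares include many dim genes, which are called less often. With the dimmest 30% of genes left out, 3431 of 13953 genes were higher and 4209 lower. Of the listed genes 65 were kept, 22 higher and 19 lower. The lists were chosen with earlier results known, so these counts are descriptions.

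Of 10 storage and chaperone genes, 6 were higher and the other 4 were not called, and their median was 0.20. Fth1, the ferritin heavy chain, was at 13.86 on each MR13 array and between 13.54 and 13.59 on the WTR- arrays (difference 0.30, adjusted p = 0.0010), and the iron chaperone Pcbp2 differed by 0.28 (adjusted p = 0.0029). By mean level Fth1 ranked 10 among all genes in MR13 and 29 in WTR-, near the top of the scale. The part of signal compression in the Fth1 difference was not tested. The largest difference was that of Scara5, which in mice encodes a receptor for ferritin. It gave 8.69, 8.64 and 8.59 in MR13 and 6.53, 6.55 and 6.16 in WTR-. The groups were far apart, with a difference of 2.23 (SE 0.10, adjusted p = 4.35e-07) or 4.69-fold.

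In the group of uptake and reduction genes 2 of 10 were higher and 4 lower, and their median was -0.10. Ltf, the iron-binding milk protein lactoferrin, was higher by 0.73 (adjusted p = 5.75e-05) although its WTR- mean of 5.46 was below the mark of dimness. The ascorbate-dependent reductase Cyb561 fell by 0.43 (adjusted p = 0.0046) and the zinc and iron carrier Slc39a8 by 0.31 (adjusted p = 0.0050).

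Genes that govern iron export and hepcidin were higher for 3 of 12, and the other 9 were not called. Hamp, which encodes the hormone hepcidin, was at 3.68 in MR13 and 3.64 in WTR-, below the mark, and Heph, a membrane ferroxidase, was also below it. Id1, a target of BMP signalling, was higher by 1.10 (SE 0.06, adjusted p = 9.42e-07), and Atoh8 by 0.32 (adjusted p = 0.014, and 0.25 with adjusted p = 0.052 without MR13 replicate 3). Neo1, the gene of a hemojuvelin-binding receptor, was higher by 0.16 (adjusted p = 0.032), and it lost its call when any 1 of the 6 arrays was left out (0.14 to 0.17, adjusted p = 0.055 to 0.091).

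Of 5 genes of the iron regulatory protein system, Ireb2, which encodes iron regulatory protein 2, was higher by 0.29 (SE 0.05, adjusted p = 0.0018) and the ligase scaffold gene Cul1 was lower (-0.19, adjusted p = 0.020). Cul1 lost its call without MR13 replicate 2 (-0.16), MR13 replicate 3 (-0.19) or WTR- replicate 1 (-0.17). Aco1, the gene of iron regulatory protein 1, gave -0.09 (adjusted p = 0.36), and Fbxl5, whose product marks these proteins for breakdown, gave -0.07 (adjusted p = 0.35).

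Mitochondrial iron import and iron-sulfur cluster genes were lower for 9 of 15 and higher for 1, with a median of -0.28. Abcb10, a transporter of the inner membrane, gave 7.33, 7.36 and 7.57 in MR13 and 8.39, 8.21 and 8.37 in WTR-. It was lower on every MR13 array (-0.90, SE 0.08, adjusted p = 2.46e-05), as were the cluster co-chaperone Hscb (-0.74, adjusted p = 1.83e-04) and the cytosolic assembly factor Nubp1 (-0.69, adjusted p = 1.40e-05). The exception was the assembly factor Isca1 (0.47, adjusted p = 8.70e-05), named after its value was seen as the single member that was higher.

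Heme genes were mixed, 7 of 22 higher and 4 lower, with a median of 0.08. Hp, the hemoglobin-binding acute-phase protein haptoglobin, gave 8.94, 9.38 and 9.23 in MR13, against 5.65, 5.37 and 5.16 in WTR-. The WTR- mean of 5.39 was below the mark of dimness, and the difference of 3.79 (SE 0.14, adjusted p = 1.24e-07) or 13.8-fold can be understated. Cpox, an enzyme of heme synthesis, fell by 1.35 (SE 0.08, adjusted p = 1.95e-06), and the heme transporter Slc48a1 was higher by 0.90 (SE 0.05, adjusted p = 1.31e-06). Hmox1, the heme-degrading oxygenase, was added after its value was seen and gave 8.65 in MR13 and 8.64 in WTR- (95% interval of the difference -0.13 to 0.16).

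**Figure D3:**
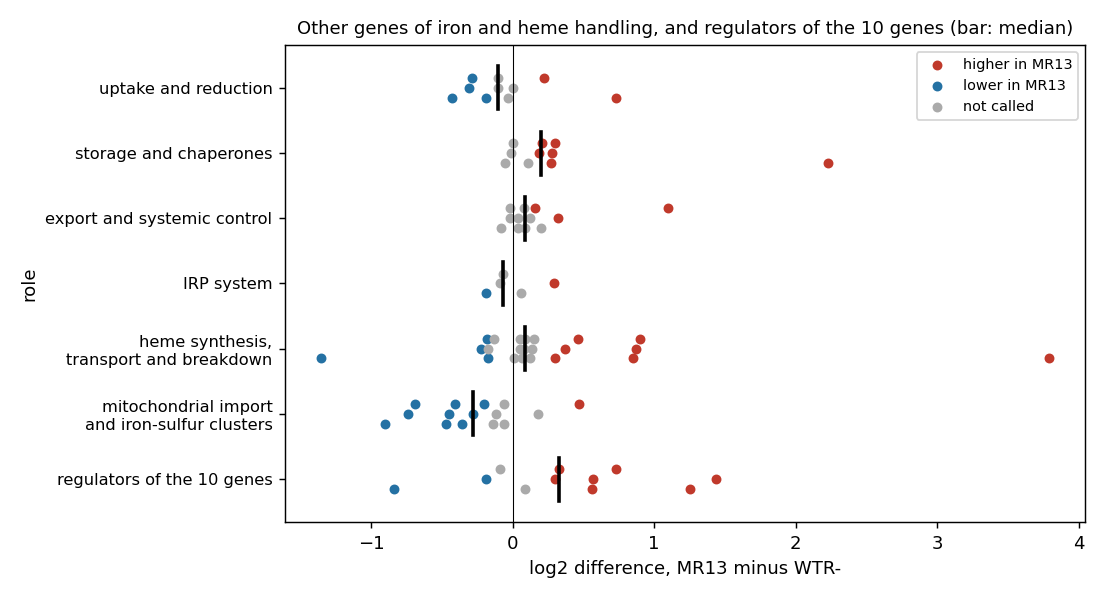
Log2 differences, MR13 minus WTR- (x axis), of 74 other iron and heme genes by role and of 11 regulators of the 10 genes (y axis); points are genes, red if called higher, blue if lower and grey otherwise, and black bars are medians. Cluster genes have a median of -0.28 and storage genes of 0.20, while Hp (3.79) and Scara5 (2.23) lie farthest out.

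Of 11 measured regulators with a known action on one of the 10 genes, 7 were higher and 2 lower in MR13. Over all genes, 17.0% were higher and 20.6% lower. The median of the regulators was 0.33, against 0.01 over all genes. Stat3, a mediator of cytokine signalling, was higher by 1.44 (SE 0.06, adjusted p = 3.61e-07). Cebpb, a factor that acts on acute-phase genes, gave 10.35, 10.53 and 10.42 in MR13 and 9.13, 9.22 and 9.19 in WTR-. All MR13 arrays were above, with a difference of 1.25 (SE 0.06, adjusted p = 7.71e-07). Myc was lower (-0.84, SE 0.05, adjusted p = 1.76e-06). Whether any of these regulators acted on the 10 genes was not tested.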

How the data were processed

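Biotin-labelled total RNA of cell cultures was read on Affymetrix arrays. Deposited values are log2 expression, already normalized by the authors, with array medians of 6.57 to 6.62. The processing notes name the R packages affy and limma, and the background correction, summarization and normalization are not given in the sources used here. Of 28350 probe sets, 21780 had 1 gene symbol, 1618 several and 4952 were unnamed here. Among single-symbol probe sets, the one with the highest mean over the 6 arrays stood for its gene. The RefSeq gene table of GRCm38.p6 supplied names and neighbours (82 of 19933 genes had no match). All columns belonged to these samples.

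The groups were compared in limma 3.58.1 (R 4.3.3; lmFit and eBayes, two-sided, no covariate), with Benjamini-Hochberg adjustment over the 19933 genes and a threshold of 0.05. Intervals are 95% intervals. No list was tested as a set. Scripts were tested on simulated data. The number of arrays limits the precision.

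The 10 genes and all lists were chosen with earlier results of these data known. In each role of the other genes, up to 3 called genes with the largest differences and no overlap of groups were named, together with the neighbours of the STEAP genes and Lcn2 and the 3 genes with profiles nearest to Steap4 and Lcn2. Hamp, Heph, Aco1, Fbxl5, Hmox1 and Isca1 fell outside this rule and were chosen after their values were seen. List members without a single-symbol probe set were not analysed here. Alternatives were quantile normalization again, median centring, leaving out the dimmest 30% of genes, averaging a gene's probe sets, a trended and robust prior, the methods' t-test (named by the study in general and not for arrays), a replicate block, a 2-fold minimum and leaving out each array.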

Additional observations from a re-analysis of the deposited data

How the results depend on the processing

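The same 9 of the 10 iron transport genes were called, in the same direction, under each of 13 alternatives. A 2-fold minimum left 3 of them. Steap1 ranged from 0.33 to 0.47 and Steap2 from 0.15 to 0.27, with largest adjusted p values of 0.035 (the methods' t-test) and 0.047 (the mean of its probe sets, 1 of which is dim). Steap4 ranged from 3.98 to 4.05, Slc40a1 from -1.58 to -1.36 and Steap3 from -1.24 to -1.10. Trf was called in none and ranged from -0.08 to 0.10.

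Same-numbered arrays of the groups did not deviate together in every pair (r = 0.128, -0.001 and 0.182 across genes), so the numbers were not read as pairs. With the replicate number as a block, 7442 genes were called in place of 7497, and 37 in place of 38 of the other iron genes. Over the alternatives, 30 to 41 of those genes were called. Of 260 values of the 20 genes named by rule for the other roles, 246 kept their call and 14 lost it, those of Neo1, Cul1, Atoh8 and Cyb561 (adjusted p = 0.057 by the methods' t-test for Cyb561, and 0.055 with median centring for Cul1), and none reversed. For 26 further genes in the text (neighbours, nearest profiles, markers and those outside the rule), these alternatives were added after seeing the data. Of their 332 values, 4 lost a call (all Cfap69, adjusted p = 0.054 to 0.11), 11 gained one (Sri, Dbi and Krt8) and none reversed. Signal near background limits Slc40a1, Trf and the WTR- level of Steap4.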

Other observations

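The genes whose 6 values, centred on the gene's own mean, lay closest to those of Steap4 were Mustn1 (root mean square distance 0.061 on the log2 scale), Chil1 (0.096) and Lrg1 (0.135), with differences of 3.94, 4.11 and 3.92. Those closest to Lcn2 were Ldah (0.019), Nfe2l2 (0.026) and Ncaph (0.027), with differences of 0.69, 0.73 and 0.70. With only 2 groups of arrays these distances mostly measure a like difference between the groups. The array-to-array pattern was shared between groups for some of the 10 genes, dim and bright. Trf was highest on replicate 1 and lowest on replicate 3 in both MR13 and WTR-, and Slc40a1 was highest on replicate 3 in both. Among bright genes, Cp was highest on replicate 1 and lowest on replicate 2 in both groups, and Slc11a2 rose from replicate 1 to replicate 3 in both. Steap1 was highest on replicate 3 and Tfrc on replicate 1 in both groups. For Steap2, Steap3, Steap4 and Lcn2 the highest replicate differed between the groups. The share of all genes with such a match was not counted, so no shared batch can be read from these genes.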
